A study of Mus musculus with 6 samples.

Results

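The 10 genes described here, *Mcl1*, *Bcl2*, *Bcl2l1*, *Bcl2l11*, *Bid*, *Bbc3*, *Bax*, *Bak1*, *Xiap* and *Birc5*, encode proteins of the Bcl2 family and of the inhibitor of apoptosis (IAP) family. They were taken by name. Each had 1 row among the 23698 rows of every library, and none shared its row with another gene. All 10 passed the filters on low values, which 9863 genes passed in total.

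The study mapped UTR isoforms and translation in mouse keratinocytes and squamous cell carcinoma cells. The values here come from cultured squamous cell carcinoma cells, called SCCc, with 1 library made by ribosome profiling and 2 by RNA-seq. The study also used ribosome profiling libraries of these cells from earlier published work, which were not analysed here. SCCc had the genotype HrasG12V with Tgfbr2 fl/fl KO, were keratinocytes from P0 back skin at passages 10 to 15, and came from a cell line that had been generated earlier. Libraries of wild-type keratinocytes were not analysed here, so every value compares genes within SCCc and no difference between conditions can be read from it.

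Apoptosis through the mitochondria is decided by contacts between Bcl2 proteins. The anti-apoptotic proteins hold back the effectors Bax and Bak1, which open the outer mitochondrial membrane, and the BH3-only proteins relieve this block or activate the effectors. Released cytochrome c then activates caspases through the apoptosome, and Xiap inhibits caspases directly, whereas Birc5, also called survivin, is best known for its part in the chromosomal passenger complex of dividing cells.

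In ribosome profiling, the stretches of mRNA covered by ribosomes survive nuclease digestion and are sequenced as footprints. Exons held 3549555 footprint counts, and 10707930 and 14003713 RNA-seq counts in replicates 1 and 2. The 10 genes held 2146, 8700 and 10874 of these counts, or 0.0605%, 0.0813% and 0.0777%. Levels are given as RPKM, the count scaled to the counted length and to the sum of exon counts of the library. The RNA level was taken over exons and the footprint level over the coding sequence (CDS). Between the replicates the chi-square over 9863 genes was 7.52 per degree of freedom, above sampling noise, so their counts were not summed, and mean RNA levels weigh them equally. Footprints came from a single library, and their values carry 95% exact Poisson intervals, which cover counting error only.

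The markers of basal keratinocytes were present. All 6 passed the filters, and *Krt5* was the most abundant, with 7965 and 9483 RPKM in RNA-seq replicates 1 and 2. The 6 genes summed to 13452 and 15494 RPKM. None of the 5 fibroblast markers passed, and they summed to 8.50 and 14.1 RPKM, with *Col3a1* the highest at 3.89 and 5.49 RPKM and without footprints on its CDS. The 3 endothelial markers summed to 0.505 and 0.591 RPKM. Of the 4 immune markers *Cd68* alone passed, with 35.1 and 37.3 RPKM, while the T cell gene *Cd3e* had no read and the leukocyte gene *Ptprc* had 5 and 14 reads. *Lyz2* had 2.71 and 8.56 RPKM from 30.7 and 127 reads and did not pass. Of the 3 melanocyte markers *Pmel* alone passed, with 5.03 and 5.19 RPKM, and *Mlana* had 1 and 0 reads. The RNA level of *Cd68* lay above the 15.3 RPKM of the median passing gene. The labelled keratinocyte identity thus fitted its defining markers, and the part of the fibroblast, immune and melanocyte signals in the levels below was not tested.

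*Mcl1*, *Bax*, *Bak1* and *Bcl2l1* had the highest RNA levels of the 10 genes, and *Bcl2* had the lowest. The mean RNA level over exons spanned 63.6-fold from *Bcl2* to *Bax*. The footprint level ran from 1.33 RPKM (95% interval 0.318 to 3.65) in *Bcl2*, from 3.45 footprints, to 354 RPKM (323 to 389) in *Birc5*. The median gene among the 9863 had an RNA level of 15.3 RPKM and a footprint level of 19.1 RPKM. In RNA 5 of the 10 genes lay above that median, among them *Xiap* at percentile 51.9, which was below it in replicate 2 alone, and in footprints 6 did.

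**Figure D1:**
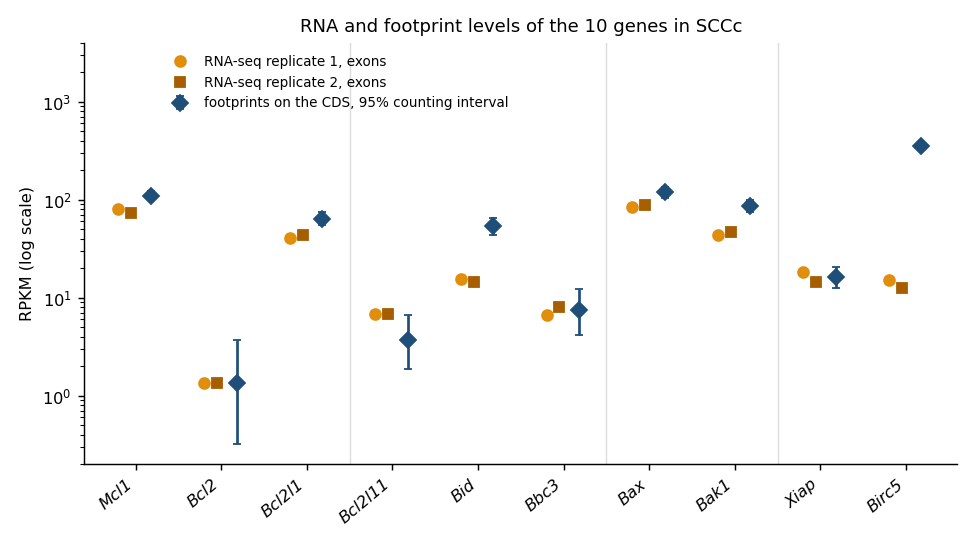
RPKM on a log axis for the 10 genes, ordered by role from the anti-apoptotic genes at the left to the IAP genes at the right. Circles and squares are the RNA-seq replicates over exons, and diamonds are footprints on the CDS with their 95% counting interval. *Birc5* has the highest footprint level at 354 RPKM with an RNA level near that of *Bid* and *Xiap*.

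Among the anti-apoptotic genes, *Mcl1* encodes a short-lived protein that binds Bak1 and Bcl2l11. It lies on the plus strand at chr3:95658788-95663176 (GRCm38, GENCODE M21). It had 2860 and 3420 RNA-seq counts on exons, giving 79.9 and 73.1 RPKM in replicates 1 and 2, and 384 footprints on the CDS, giving 110 RPKM (95% interval 99.2 to 122). *Mcl1* was the most abundant anti-apoptotic gene in footprints and in RNA over exons. *Bcl2l1*, which encodes Bcl-xL, lies on the minus strand at chr2:152780668-152831728. Its RNA level was 41.0 and 43.1 RPKM from 1404 and 1930 counts, and its footprint level was 64.1 RPKM (55.4 to 73.9) from 191 footprints. The RNA level of *Mcl1* was 1.95-fold that of *Bcl2l1* in replicate 1 and 1.69-fold in replicate 2, and its footprint level was 1.71-fold higher (1.44 to 2.05). The lead in RNA does not hold over the CDS, where *Mcl1* and *Bcl2l1* had 59.6 and 62.0 reads per 100 nt in replicate 1 and 79.8 and 81.1 in replicate 2.

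*Bcl2*, the founding gene of the family, lies on the minus strand at chr1:106538178-106714274. It had 112 and 146 RNA-seq counts, giving 1.35 RPKM in each replicate, just above the limit of 1 RPKM. On the CDS it had 3.45 footprints, giving 1.33 RPKM (0.318 to 3.65). Its RNA level stood at percentile 0.705 of the 9863 genes. The RNA level of *Mcl1* was 59.1-fold and 54.2-fold that of *Bcl2* in replicates 1 and 2. The footprint count of *Bcl2* leaves its translation poorly determined.

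The RNA levels of the BH3-only genes lay between those of *Bcl2l1* and *Bcl2*. *Bid*, whose protein is cut by caspase 8 to link death receptors to mitochondria, lies on the minus strand at chr6:120892854-120916853 and had 15.3 and 14.5 RPKM from 310 and 383 RNA-seq counts. It had 111 footprints on the CDS, giving 53.5 RPKM (44.0 to 64.4). The footprint level of *Bid* thus stood at percentile 74.4 of all passing genes, and its RNA level at percentile 49.0. *Bbc3* (chr7:16309616-16318205, plus strand), which encodes the p53 target Puma, had 6.69 and 7.94 RPKM from 139 and 216 counts, and 15.2 footprints giving 7.40 RPKM (4.16 to 12.2). *Bcl2l11* (chr2:128126039-128162547, plus strand), which encodes Bim, had 6.82 and 6.73 RPKM from 516 and 665 counts, and 11.3 footprints giving 3.70 RPKM (1.87 to 6.58). The RNA levels of *Bbc3* and *Bcl2l11* overlapped between replicates, and so did the intervals of their footprint levels. The footprint level of *Bid* was 7.23-fold that of *Bbc3* (4.21 to 13.3) and 14.4-fold that of *Bcl2l11* (7.81 to 29.5), and its RNA level over exons was 2.04-fold and 2.20-fold that of these genes. Over the CDS the RNA levels lay further apart, at log2 values over the median of passing genes of -0.08 for *Bid*, -2.16 for *Bbc3* and -1.61 for *Bcl2l11*.

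Both effectors were expressed well above the median gene. *Bax* (chr7:45461697-45466898, minus strand) had the highest RNA level of the 10 genes, 84.3 and 87.4 RPKM from 784 and 1064 counts, and 242 footprints giving 118 RPKM (104 to 134). *Bak1* (chr17:27019810-27029009, minus strand) had 43.3 and 46.8 RPKM from 927 and 1311 counts, and 191 footprints giving 85.6 RPKM (73.9 to 98.7). *Bax* thus exceeded *Bak1* in RNA, by 1.95-fold in replicate 1 and 1.87-fold in replicate 2, and in footprints, by 1.38-fold (1.14 to 1.68). The footprint levels of *Bax* and *Mcl1* were not distinguishable at this depth (ratio 1.08, 0.912 to 1.27).

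The IAP genes lay close in RNA level over exons, with *Xiap* above *Birc5* in both replicates, and stood far apart in footprints. *Xiap* (chrX:42093728-42109656, plus strand) had 18.1 and 14.3 RPKM from 1180 and 1225 RNA-seq counts, and 72.8 footprints giving 16.1 RPKM (12.6 to 20.3). *Birc5* (chr11:117849251-117855732, plus strand) had 15.0 and 12.6 RPKM from 469 and 514 counts. It had 452 footprints on the CDS, giving 354 RPKM (323 to 389), the highest of the 10 genes and at percentile 95.3 of all passing genes. The footprint level of *Birc5* was 22.0-fold that of *Xiap* (17.1 to 28.5), with a mean RNA level over exons that was 0.850 times as high. Over the CDS the RNA level of *Birc5* was the higher one, with a log2 value over the median of passing genes of 1.55 against -0.20 for *Xiap*.

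In order of mean RNA level over exons the genes were *Bax*, *Mcl1*, *Bak1*, *Bcl2l1*, *Xiap*, *Bid*, *Birc5*, *Bbc3*, *Bcl2l11* and *Bcl2*. *Birc5* was below *Xiap* and *Bid* within each replicate, and the order of *Xiap* and *Bid* turned between replicates. Over the CDS, in contrast, *Birc5* stood at a log2 value of 1.55 over the median of passing genes, *Bid* at -0.08 and *Xiap* at -0.20. *Bak1* and *Bcl2l1* differed by 1.05-fold and 1.08-fold within replicates 1 and 2, and their means of 45.0 ± 2.47 and 42.1 ± 1.49 RPKM (SD, n = 2) overlapped within 1 SD. The log2 ratio of replicate 2 over replicate 1 was largest in size for *Xiap* (-0.33), *Birc5* (-0.25) and *Bbc3* (0.25). It lay within the SD of 0.20 over all passing genes for the other 7 genes.

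Translational efficiency was the footprint level divided by the mean RNA level, on the log2 scale and relative to the median of the 9863 genes. It was above 1 for 2 of the 10 genes, *Birc5* and *Bid*, where 20.8% of all passing genes were above 1. It was below -1 for *Bcl2l11* alone, where 21.1% of all passing genes were below -1. The other 7 genes lay between these limits. The median of the 10 genes was 0.15, near the median of 0 that defines the scale, and the SD over all passing genes was 1.45. The single values ran from -1.21 to 4.34, so this median does not describe the genes one by one.

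**Figure D2:**
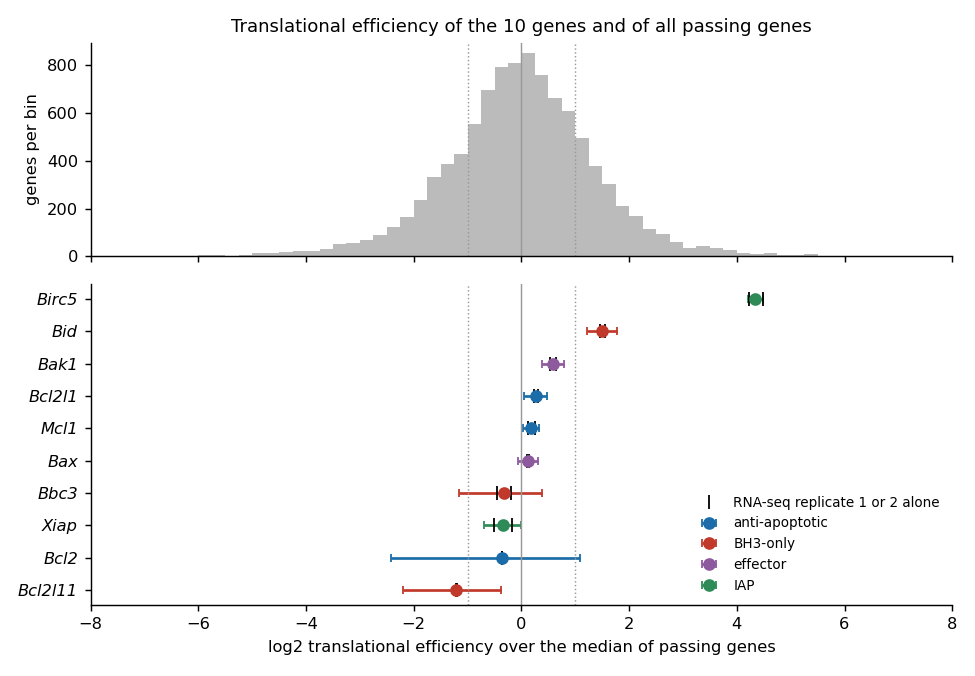
The upper panel shows the number of passing genes per bin of log2 translational efficiency, and the lower panel shows the 10 genes on the same axis with their 95% counting intervals of the footprints. Vertical ticks give the value against RNA-seq replicate 1 or 2 alone, and dotted lines mark -1 and 1. *Birc5* (4.34) and *Bid* (1.50) lie above 1 with their whole intervals, and the interval of *Bcl2l11* reaches above -1.

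*Birc5* had a log2 translational efficiency of 4.34 (95% counting interval 4.21 to 4.48, SD 0.18 over n = 2 RNA-seq replicates), at percentile 99.4 of all passing genes. The size of this value depends on the region over which RNA was counted. The counted exons of *Birc5* spanned 2923 nt, of which 2388 nt were 3′UTR and 359 nt CDS. In the annotated transcript Birc5-201 of GENCODE M21 the 3′UTR had 427 nt. The counted CDS was 80.9% as long as the CDS annotated over the coding transcripts of *Birc5*. RNA-seq replicate 1 had 61.0 reads per 100 nt on the CDS and 7.57 on the 3′UTR, and replicate 2 had 73.6 and 7.20. With RNA counted over the CDS in place of exons the value was 2.65, still above 1. A further 90.1 footprints fell on 62 exon positions of *Birc5* that belonged to no counted region. These positions and 90.1 footprints do not enter the value.

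*Bid* had a log2 translational efficiency of 1.50 (1.22 to 1.77, SD 0.06), and 1.54 with RNA counted over the CDS. Without division by length it had 0.82, no longer above 1. *Bak1* followed with 0.59 (0.37 to 0.79, SD 0.08), 0.42 with RNA counted over the CDS and -0.08 without division by length. *Bcl2l1* had 0.27 (0.05 to 0.47), *Mcl1* had 0.18 (0.03 to 0.33) and *Bax* had 0.12 (-0.07 to 0.30). The intervals of *Bcl2l1*, *Mcl1* and *Bax* overlapped, and all 3 genes were close to the median gene. With RNA counted over the CDS *Mcl1* had 0.92 and *Bax* had -0.14. The scale depends on the genes that set its median. Where only genes reaching 100 counts per library set it, all values were lowered alike, to -0.21 for *Mcl1*, -0.13 for *Bcl2l1* and -0.27 for *Bax*.

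*Bcl2l11* had the lowest log2 translational efficiency at -1.21 (-2.20 to -0.38, SD 0.01), and -0.78 with RNA counted over the CDS. Its counted CDS of 856 nt was longer than the 647 nt annotated over its coding transcripts in GENCODE M21. A longer counted CDS lowers the footprint level, and the value with the annotated length was not computed. *Bcl2* had -0.36 (-2.43 to 1.09), *Xiap* had -0.35 (-0.70 to -0.02, SD 0.24) and *Bbc3* had -0.33 (-1.16 to 0.39). The interval of *Bcl2l11* overlapped those of *Bcl2*, *Xiap* and *Bbc3*, so their order is not resolved. For *Bcl2* and *Bbc3* the interval included 0, and with RNA counted over the CDS both were positive, at 0.56 and 0.77, although *Bcl2* then rests on 3.06 and 13.9 RNA-seq reads in replicates 1 and 2. The small SD of *Bcl2l11* and *Bcl2* reflects the RNA-seq replicates only, since their footprint counts of 11.3 and 3.45 set the wide intervals.

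The sequence around the start codon is shown for the genes above 1 or below -1 in log2 translational efficiency. It is given with the start codon in capitals, 9 bases before it and 6 bases after it. The bases read 5′ to 3′ on the coding strand from GENCODE M21 (GRCm38). The *Birc5* stretch lies at chr11:117849342-117849359 on the plus strand, that of *Bid* at chr6:120901726-120901743 on the minus strand and that of *Bcl2l11* at chr2:128128624-128128641 on the plus strand.
Birc5: gacgccatcATGggagct
Bid: gcttgtgccATGgactct
Bcl2l11: aaagaccaaATGgccaag
A purine 3 bases before the start codon and a G directly after it form the favourable part of the Kozak context. *Birc5* and *Bid* had both. *Bcl2l11* had the G and was the only 1 of the 10 genes without the purine. Of the 10 genes, 9 had the purine and 7 had the G, and among 19475 coding genes 85.0% and 49.8% did. The part of this context in translational efficiency was not tested.

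*Bak1* had the highest 5′UTR footprint ratio of the well-covered genes. Footprint density on the 5′UTR was compared with that on the CDS, as a log2 ratio, for genes whose counted 5′UTR spanned 60 nt or more and whose CDS held 50 or more footprints. Of the 10 genes 7 met these limits, and in 1 of them, *Bak1*, the 5′UTR was denser, where 13.5% of 5397 such genes had a denser 5′UTR. *Bak1* had 86.0 footprints on 253 nt of 5′UTR and 191 on 627 nt of CDS, or 34.0 and 30.4 per 100 nt. The log2 ratio was 0.16 (95% interval -0.22 to 0.54), which does not separate the densities of the 2 regions but stands at percentile 88.9 of the 5397 genes, whose median was -1.47. RNA-seq reads of *Bak1* were also denser on the 5′UTR, with log2 ratios of 0.42 and 0.24 in replicates 1 and 2. Relative to them the footprint ratio was -0.16, below the median of 0.27 over 4933 background genes.

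*Bcl2l1* had 69.6 footprints on 570 nt of 5′UTR, with a log2 ratio of -0.90 (-1.32 to -0.50) at percentile 67.4. Relative to the RNA-seq density ratio its value was 0.42. *Bid* (-1.30), *Xiap* (-1.39) and *Mcl1* (-1.79) lay close to the median of the background genes. Relative to the RNA-seq density ratio of the same regions these 3 genes had -1.20, 1.83 and 0.90 against a background median of 0.27. No interval was computed for these values. They rest on few RNA-seq reads on the 5′UTR, with 5.65 and 11.6 in *Xiap* and 9.74 and 21.7 in *Mcl1* in replicates 1 and 2. *Birc5* had 26.8 footprints on 114 nt of 5′UTR, with a ratio of -2.42 (-3.04 to -1.86), and -0.22 relative to the RNA-seq density ratio. *Bax* had the lowest ratio, -4.48 (-7.23 to -2.73), from 2.31 footprints on 123 nt, at percentile 7.69. The effectors had 33.99 footprints per 100 nt of 5′UTR in *Bak1* and 1.88 in *Bax*. RNA-seq reads differed in the same direction, with 85.4 and 4.39 per 100 nt of 5′UTR in replicate 1 and 105.9 and 10.9 in replicate 2. Relative to the RNA-seq density ratio the footprint ratio of *Bax* was -0.01, so the contrast with *Bak1* (-0.16) was not kept.

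The 3 genes with fewer than 50 footprints on the CDS gave wide intervals. *Bcl2* had 17.5 footprints on a 5′UTR of 1410 nt, the longest of the 10 genes, and a log2 ratio of 1.39 (-0.30 to 3.60). *Bcl2l11* had 5.59 footprints on the 5′UTR and a ratio of 0.80 (-0.97 to 2.38), and *Bbc3* had 5.80 and a ratio of -0.41 (-2.09 to 1.05). All 3 intervals included equal density.

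**Figure D3:**
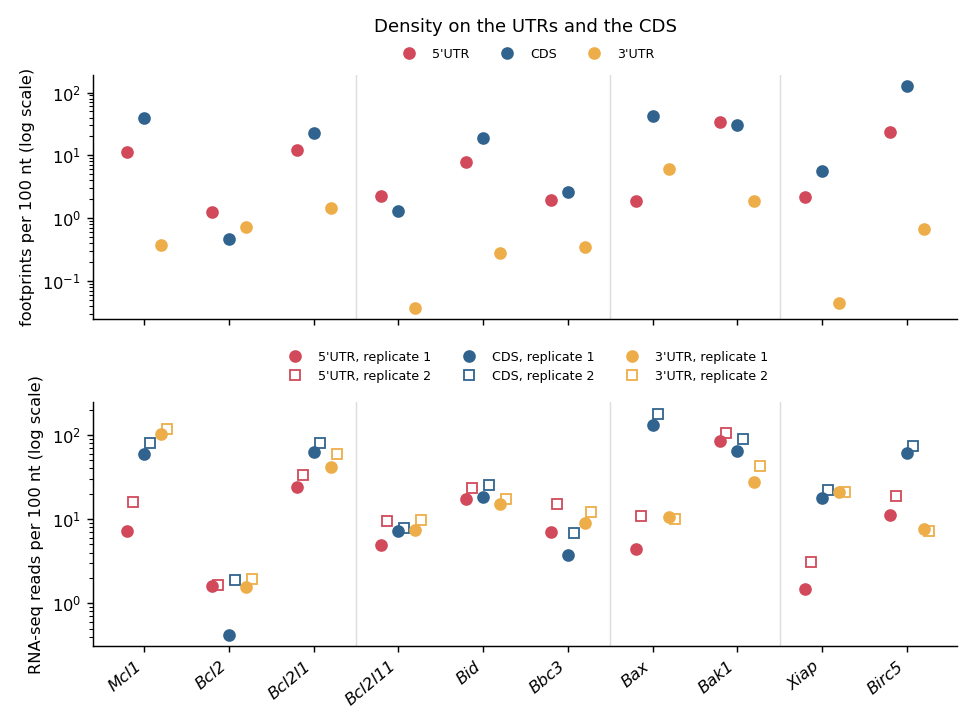
Footprints per 100 nt (upper panel) and RNA-seq reads per 100 nt (lower panel) on the counted 5′UTR, CDS and 3′UTR of the 10 genes, on log axes, with the RNA-seq replicates as filled circles and open squares. Footprint density is highest on the CDS in 7 of the 10 genes and on the 5′UTR in *Bak1*, *Bcl2* and *Bcl2l11*, whereas RNA-seq reads also cover the 3′UTR.

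Translation of an upstream open reading frame can begin at an ATG in the 5′UTR, and other start codons were not analysed here. In 1 annotated transcript per gene, 8 of the 10 genes had at least 1 upstream ATG, and *Mcl1* and *Bid* had none. Among the 19475 coding genes 51.1% had one. *Xiap* had 21 in a 5′UTR of 671 nt with 31.4% GC, and *Bcl2* had 11 in 1394 nt. *Bak1* had 4 in 636 nt, all followed by a stop codon before the start codon. The median 5′UTR had 154 nt and 60.6% GC, and 7 of the 10 genes had a longer one.

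The upstream ATG of *Bak1* with a purine 3 bases before it and the only upstream ATG of *Bcl2l1* and *Bcl2l11* are shown. *Bak1* and *Bcl2l1* had the highest 5′UTR to CDS footprint ratios of the 7 genes compared, and *Bcl2l11* had a positive ratio from few footprints. Relative to the RNA-seq density ratio of the same regions *Xiap* (1.83) and *Mcl1* (0.90) were the highest of the 7 genes. The 11 upstream ATG of *Bcl2*, whose 5′UTR to CDS footprint ratio was the highest of the 10 genes, are not shown. The ATG is in capitals with up to 9 bases before it and 6 after it. The 2 *Bak1* stretches lie on the minus strand at chr17:27028811-27028828 and chr17:27028532-27028549, that of *Bcl2l1* on the minus strand at chr2:152830014-152830031, and that of *Bcl2l11* on the plus strand at chr2:128126208-128126225, all in the 5′UTR.
Bak1 upstream ATG 2: agggagaagATGgaagag
Bak1 upstream ATG 4: tccagcaccATGaatcca
Bcl2l1 upstream ATG 1: ttttggacaATGgactgg
Bcl2l11 upstream ATG 1: gtccacccaATGtctgac
The reading frames opened by these *Bak1* ATG had 47 and 12 codons, and that of *Bcl2l1* had 9 codons. That of *Bcl2l11* began 49 nt before the start codon, out of frame with the CDS, and spanned 22 codons, ending beyond the start codon. The files give counts per region and not per position, so no footprint can be placed on any of these ATG. The counted 5′UTR also differed in length from the transcript shown, with 253 against 636 nt in *Bak1* and 570 against 238 nt in *Bcl2l1*.

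A C followed by 4 pyrimidines at the annotated 5′ end, the pattern of terminal oligopyrimidine mRNAs, occurred in 1 of the 10 genes, *Mcl1*, and in 2.35% of the 19475 coding genes. The 5′ ends used in SCCc were not analysed here.

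Few footprints fell on 3′UTR. The median log2 ratio of 3′UTR to CDS footprint density was -5.87 over 6549 genes with at least 60 nt of 3′UTR and 50 footprints on the CDS. Among the 7 genes that met these limits, *Birc5* (-7.52), *Xiap* (-6.99), *Mcl1* (-6.69) and *Bid* (-6.06) lay below that median. *Bak1* (-3.99), *Bcl2l1* (-3.96) and *Bax* (-2.81) lay above it, and *Bax* stood at percentile 95.4 from 10.2 footprints on 170 nt (interval -3.88 to -1.91). Relative to the RNA-seq density ratio of the same regions *Birc5* had -4.34, above the background median of -5.02, and *Bax* had 1.09. *Bcl2*, below these limits, had 41 footprints on 5599 nt of 3′UTR, more than on its CDS, with a ratio of 0.63 (-0.93 to 2.76). Of the footprints of *Bcl2* in the 3 regions, 66.1% fell on the 3′UTR and 5.57% on the CDS.

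RNA-seq reads, in contrast, covered the 3′UTR of most of these genes. The 3′UTR held 79.2% and 76.4% of the RNA-seq reads of *Mcl1* in replicates 1 and 2, where it made up 66.5% of the counted length, against 2.06% of its footprints. It held 85.7% and 86.5% of the reads of *Bcl2l11* and 80.1% and 76.1% of those of *Xiap*. *Bax* stood apart with 2.30% and 1.61%, from a 3′UTR that made up 19.6% of its counted length. Of the footprints in the 3 counted regions, on the other hand, most lay on the CDS in every gene but *Bcl2*. The share was 94.2% in *Mcl1*, 95.1% in *Bax*, 91.3% in *Birc5*, 88.7% in *Bid* and 87.6% in *Xiap*. It was 66.6% in *Bcl2l1*, 64.0% in *Bak1*, 61.3% in *Bbc3* and 58.9% in *Bcl2l11*, against 93.4% over the whole library.

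The genes closest to *Mcl1* in both RNA-seq replicates, in footprints on the CDS and in footprint density on the 5′UTR were *Nucb1*, *Matr3* and *Dhx15*. Their Euclidean distances over these 4 log2 values were 0.25, 0.30 and 0.30 among 2933 genes with at least 60 nt of 5′UTR and 10 footprints on it. *Mcl1* had 11.3 footprints per 100 nt of 5′UTR, and these genes had 11.7, 12.1 and 13.8.

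Wider lists of apoptosis genes held 55 genes, of which 43 passed the filters. Of the 45 genes other than the 10 described above, 33 passed. Among these, 9 (27.3%) had a log2 translational efficiency above 1 and 4 (12.1%) below -1, against 20.8% and 21.1% of all passing genes, and their median was 0.17.

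Of 8 anti-apoptotic genes 4 passed, and *Bcl2l2*, which encodes Bcl-w, had -2.64 with 7 footprints on the CDS and an RNA level of 16.8 RPKM in each replicate. *Mcl1* had the highest RNA level of this list over exons. The *Bcl2a1* paralogs are near-identical copies whose reads cannot be told apart with confidence, and *Bcl2a1a* had no read. Of 3 effectors all passed, with *Bok* lowest in RNA at 14.2 and 15.7 RPKM and a translational efficiency of -0.79.

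Of 8 BH3-only genes 5 passed. *Pmaip1*, which encodes Noxa, the BH3-only partner of Mcl1, had the highest RNA level of this list, 49.3 and 42.2 RPKM, and a log2 translational efficiency of 2.35 from 324 footprints on the CDS. That value was 0.30 without division by length, no longer above 1. The footprint level of *Pmaip1*, 296 RPKM, exceeded the 53.5 RPKM of *Bid*. *Bik* had no read. Of 6 IAP genes 4 passed, and *Birc2*, which encodes cIAP1, had -1.65 from 32 footprints on the CDS. *Birc7* had no read, and *Xiap* had the highest RNA level of the list over exons. Of 3 IAP antagonists 2 passed, with values of 0.55 for *Diablo* and -0.15 for *Htra2* (-0.38 without RNA-seq replicate 1 and 0.12 without replicate 2). The mean RNA level of *Htra2* was the highest of the 3, although *Diablo* was higher in replicate 1 (27.2 against 23.0 RPKM). *Sept4* was the lowest with 2.47 and 0 reads.

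All 6 genes of the apoptosome and caspase list passed, 1 of them above 1. *Cycs*, which encodes cytochrome c, had the highest RNA level and a log2 translational efficiency of 4.67, which was 2.79 with RNA counted over the CDS, and its many processed pseudogenes make its counts uncertain. Of 7 death receptor genes 6 passed. *Fadd* (1.31, from 38.3 footprints on the CDS), *Tradd* (1.29) and *Tnfrsf10b* (1.15) were above 1. *Tnfrsf1a*, which had the highest RNA level of the list at 82.4 and 88.3 RPKM, was below -1 at -1.41. On the lower scale set by genes with at least 100 counts *Tradd* had 0.90 and *Tnfrsf10b* 0.76, and *Fadd* did not pass. Without division by length *Fadd* had 0.10, no longer above 1, *Tradd* had 1.73 and *Tnfrsf10b* had 1.23. *Fas* had the lowest RNA level, 2.41 and 1.98 RPKM, and did not pass.

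All 4 nuclease and flavoprotein genes passed and lay between -1 and 1, with translational efficiencies of 0.46 for *Aifm1*, the highest in RNA, and -0.26 for *Dffb*, the lowest. Without division by length *Aifm1* had 1.20 and *Dffb* -0.23. Of 4 genes of Mcl1 protein turnover 3 passed, and *Fbxw7*, a ubiquitin ligase subunit, was below -1 at -1.72, from 19.5 footprints on the CDS. *Huwe1*, which encodes the ligase Mule, had the highest mean RNA level of these at 29.1 and 27.4 RPKM, with *Usp9x* at 29.2 and 24.3, and a value of -0.76, or -1.16 on the lower scale set by genes with at least 100 counts, and *Trim17* the lowest with 1.62 and 3.58 reads.

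The 3 partners of Birc5 in the chromosomal passenger complex were all above 1. *Aurkb* had 2.24, with the lowest RNA level at 14.2 and 12.5 RPKM, *Cdca8* had 2.05 and *Incenp* had 1.09, with the highest RNA level at 28.6 and 26.5 RPKM. With *Birc5*, all 4 subunits of the complex were above 1, as were 20.8% of all passing genes. With RNA counted over the CDS, where 18.3% of genes were above 1, they stayed so, at 2.65, 2.35, 1.95 and 1.20 for *Birc5*, *Aurkb*, *Cdca8* and *Incenp*. On the lower scale set by genes with at least 100 counts *Incenp* had 0.69. Among the 5 p53 target and regulator genes, *Pmaip1* (2.35) and *Trp53* (2.00) were above 1. Without division by length *Pmaip1* had 0.30 and *Trp53* 2.26. *Cdkn1a* had the highest RNA level at 112 and 120 RPKM with a value of 0.58, and *Bbc3* the lowest.

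**Figure D4:**
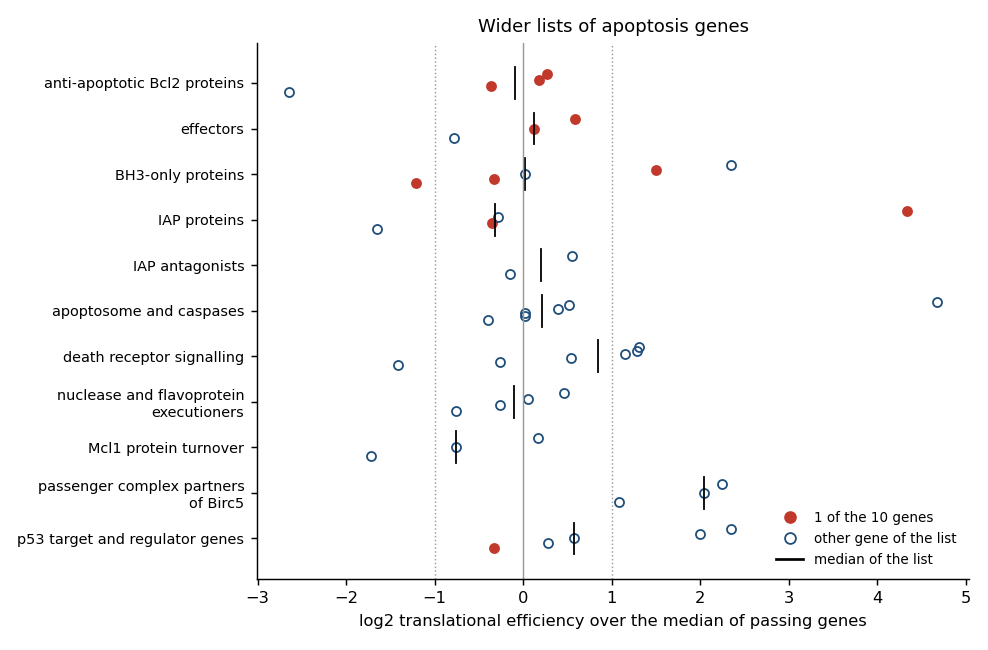
Log2 translational efficiency of the passing genes in each wider list, with the 10 genes as filled points, other genes as open points and the median of each list as a bar. Dotted lines mark -1 and 1. The 3 passenger complex partners of *Birc5* all lie above 1, and 1 gene of the apoptosome and caspase list, *Cycs*, lies at 4.67.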

How the data were processed

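The authors trimmed the reads, aligned them to GRCm38 with STAR 2.6.1 after removing footprint reads that Bowtie2 2.4.1 matched to ribosomal, mitochondrial or tRNA sequences, and counted them per gene with Plastid. The deposited counts are estimated counts that need not be whole and are not normalized. The deposited RPKM values use a larger library total and entered alternatives only. Exon counts made up 1.75% of that total for footprints, and 21.1% and 21.3% for RNA-seq replicates 1 and 2. RPKM was computed again from counts, counted length and the sum of exon counts, in Python 3.11.15 with numpy 2.4.6, pandas 2.3.3 and scipy 1.17.1. Genes passed with footprints on the CDS, more than 1 RPKM in each RNA-seq replicate, and a mean above 25 over footprint CDS counts and RNA-seq exon counts divided by median-of-ratios size factors. The use of CDS counts in this mean was chosen after seeing the data. Density ratios carry 95% Clopper-Pearson intervals. The calculation was tested on simulated counts. No p-value was computed, since there was 1 condition and 1 ribosome profiling library. As alternatives, RNA-seq replicates were left out in turn, 1 RPKM was added as a pseudocount, and other filters, other counted regions and edgeR 4.0.16 TMM library sizes were used. Named genes were the 10 genes, in each wider list those above 1 or below -1 and the highest and, but for the apoptosome list, the lowest in RNA, with *Diablo* and *Usp9x* beside them, and the 3 genes nearest to *Mcl1*. Another 2 genes planned for the wider lists were left out of them and are not reported here. The genes and lists were chosen with earlier results of these data known. The annotation release used for counting is not given in the sources used here. Transcripts came from GENCODE M21, 1 per gene by APPRIS rank.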

Additional observations from a re-analysis of the deposited data

How the results depend on the processing

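The number of the 10 genes with a log2 translational efficiency above 1 was 2 under every alternative that divided counts by length. Without that division it was 1, with *Bid* at 0.82, and 4 genes were below -1. There 19.2% of all passing genes were above 1 and 21.1% below -1. The number below -1, 1 gene, was 0 with RNA counted over the CDS, where 19.5% of 9862 genes were below -1. It was also 0 with at least 100 counts in every library, a limit that *Bcl2l11* did not reach. There 6 of the 10 genes, 4829 genes in all, passed, 908 above 1 and 757 below -1. The median of the 10 genes, 0.15, was 0.15 without RNA-seq replicate 1 and 0.14 without replicate 2. It was 0.18 with a pseudocount, 0.49 with RNA counted over the CDS, 0.13 without the filters, 0.032 with at least 100 counts, 0.17 with filters on the deposited RPKM, which *Bcl2* did not pass, and -0.61 without division by length. TMM library sizes and leaving out joined rows changed none of these counts of the 10 genes. Unrounded footprint CDS counts in the filters were chosen after seeing the data, to reach the number of passing genes in an earlier result, and the 3 alternatives to this choice were added then. With exon counts for the footprints 9894 genes passed in place of 9863, and with rounded counts 9862. The 10 genes all passed both times, 2 above 1 and 1 below -1, with a median of 0.15. With at least 100 counts and footprints over exons 5204 genes passed, 1002 above 1 and 824 below -1, and 6 of the 10 genes had a median of 0.069, 2 above 1 and 0 below -1. Of the 7 genes compared, 1 had a denser 5′UTR than CDS and 4 a ratio above the background median. The latter number was 3 with a pseudocount of 1 footprint on both regions and 3 relative to the RNA-seq density. With at least 10 footprints on the CDS 2 of 9 had a denser 5′UTR, as had 17.3% of 7653 background genes, and relative to the RNA-seq density 3 of 7, with *Bak1* at -0.16, where 55.7% of 4933 background genes did. With at least 30 footprints on the 5′UTR, a filter on a count that enters the ratio, both genes left were above the background median, 2 of 2. On the 3′UTR 3 of 7 were above it, 5 of 9 with at least 10 footprints and 4 of 7 relative to the RNA-seq density, where *Bax* was denser on the 3′UTR, as were 3.84% of background genes. Where no value shows it, the cause was not tested. No paired analysis was possible because the single ribosome profiling library shares fewer than 2 replicate numbers with RNA-seq. Depth limits *Bcl2*, *Bcl2l11* and *Bbc3*, with 3.45 to 15.2 footprints on the CDS.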
